A study of Mus musculus with 7 samples.

Results

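The cornified keratinocyte and barrier genes examined here are 10 of the 25700 genes listed in the count tables of mouse incisor epithelium. These genes were chosen for their known role in the differentiation of oral and skin keratinocytes, with earlier results of these data known. They are Lor, Ivl, Sprr1a and Sprr1b, which code for precursors of the cornified envelope, Krtdap, Sbsn and Dmkn, which code for secreted proteins of the suprabasal layers, Tgm1 and Tgm3, which code for cross-linking enzymes, and Sfn, which codes for the 14-3-3 protein sigma. All 10 symbols matched 1 Ensembl identifier each. RNA came from newborn (PN0) pups. In 4 of them, labelled with K14cre on 1 allele and both Nogo-A alleles floxed (K14;Nogo-A, replicates 1, 2, 7 and 10), the recombinase is driven by the keratin 14 promoter, which is active in the dental epithelium and also in other stratified epithelia. The 3 controls are labelled wild-type (replicates 3, 8 and 9) and were littermates. Each library holds the epithelium, by the design text its posterior part, of both lower incisors of 1 pup, freed from the mesenchyme with Dispase. No group carries K14cre or the floxed alleles alone. Values of single pups are given below in the order of these replicate numbers.

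A keratinocyte that leaves the basal layer replaces Krt5 and Krt14 by other keratins, makes the proteins of the cornified envelope and, at the surface, dies as a flat sheath. Involucrin and loricrin, coded by Ivl and Lor, and the small proline-rich proteins are laid down under the plasma membrane and joined to each other by transglutaminases, of which Tgm1 and Tgm3 act in the epidermis. The dental epithelium derives from the oral ectoderm and shares its basal keratins, but its inner layer becomes ameloblasts that secrete enamel and do not cornify.

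Most of the genes lie in 2 clusters. Lor, Sprr1b, Sprr1a and Ivl lie on the minus strand of chromosome 3 of GRCm38, with Lor from 92080271 to 92083142, Sprr1b from 92436809 to 92438789, Sprr1a from 92483952 to 92485895 and Ivl from 92570902 to 92573735. Sbsn (30751471 to 30756134), Dmkn (30763756 to 30781063) and Krtdap (30787896 to 30791097) follow each other on the plus strand of chromosome 7. Sfn is a gene of 1 exon on chromosome 4 (133600556 to 133602168, minus strand), Tgm1 lies on chromosome 14 (55700009 to 55713926, minus strand) and Tgm3 on chromosome 2 (130012349 to 130050399, plus strand). The promoter windows of RefSeq (GRCm38.p6), 300 bases around each annotated start with most of them upstream, were searched on both strands. The motifs were TATAAA, at which the general transcription machinery assembles, TGANTCA, the AP-1 site of Jun and Fos proteins, and GGGCGG, the GC box of Sp proteins. All 10 genes had at least 1 window. A gene was counted when any of its windows held the motif, while the shares given beside are of single windows. The windows of 6 genes, which are Lor, Ivl, Krtdap, Sprr1a, Sprr1b and Tgm3, held TATAAA, against 13.6% of all 32851 windows. TGANTCA was found in 7 genes, which are Lor, Ivl, Krtdap, Sbsn, Dmkn, Sprr1a and Sprr1b, against 7.81% of all windows, and GGGCGG only in Tgm1, against 35.7%. No match overlapped another. Windows are shown for the 3 genes with the highest level in these libraries and for 3 envelope genes with little or no RNA, each 5′ to 3′ on the strand of the gene. Capitals mark matches to the 3 motifs, and CCGCCC is a GC box read on the other strand.

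Sfn promoter, chr4:133602119-133602418, minus strand: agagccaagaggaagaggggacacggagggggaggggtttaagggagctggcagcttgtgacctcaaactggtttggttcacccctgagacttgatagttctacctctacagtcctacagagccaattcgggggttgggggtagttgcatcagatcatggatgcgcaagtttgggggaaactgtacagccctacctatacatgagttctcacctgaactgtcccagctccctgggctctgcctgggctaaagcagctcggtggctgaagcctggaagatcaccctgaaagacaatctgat
Tgm1 promoter, chr14:55713443-55713742, minus strand: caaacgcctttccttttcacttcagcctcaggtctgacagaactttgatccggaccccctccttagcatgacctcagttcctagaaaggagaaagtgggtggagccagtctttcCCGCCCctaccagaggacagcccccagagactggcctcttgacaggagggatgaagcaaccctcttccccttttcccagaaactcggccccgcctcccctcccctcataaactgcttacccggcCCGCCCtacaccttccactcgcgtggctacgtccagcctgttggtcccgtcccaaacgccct
Dmkn promoter, chr7:30763506-30763805, plus strand: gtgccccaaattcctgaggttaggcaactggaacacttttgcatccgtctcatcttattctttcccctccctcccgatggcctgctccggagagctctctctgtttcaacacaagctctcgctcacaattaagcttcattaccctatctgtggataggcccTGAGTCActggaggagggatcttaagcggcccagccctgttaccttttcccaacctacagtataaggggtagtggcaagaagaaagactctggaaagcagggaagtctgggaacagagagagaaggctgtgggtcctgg
Lor promoter, chr3:92083093-92083392, minus strand: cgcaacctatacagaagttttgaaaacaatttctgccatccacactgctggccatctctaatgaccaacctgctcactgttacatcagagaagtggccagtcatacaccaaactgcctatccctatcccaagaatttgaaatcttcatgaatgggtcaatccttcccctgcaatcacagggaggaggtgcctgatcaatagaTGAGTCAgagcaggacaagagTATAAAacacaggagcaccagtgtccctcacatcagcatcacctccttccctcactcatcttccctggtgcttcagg
Sprr1a promoter, chr3:92485832-92486131, minus strand: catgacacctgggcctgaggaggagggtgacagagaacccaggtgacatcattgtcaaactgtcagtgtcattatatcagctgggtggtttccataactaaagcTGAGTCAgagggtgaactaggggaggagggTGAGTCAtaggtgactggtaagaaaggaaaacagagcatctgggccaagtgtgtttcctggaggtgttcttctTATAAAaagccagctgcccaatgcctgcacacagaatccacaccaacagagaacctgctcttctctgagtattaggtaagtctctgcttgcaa
Ivl promoter, chr3:92573686-92573985, minus strand: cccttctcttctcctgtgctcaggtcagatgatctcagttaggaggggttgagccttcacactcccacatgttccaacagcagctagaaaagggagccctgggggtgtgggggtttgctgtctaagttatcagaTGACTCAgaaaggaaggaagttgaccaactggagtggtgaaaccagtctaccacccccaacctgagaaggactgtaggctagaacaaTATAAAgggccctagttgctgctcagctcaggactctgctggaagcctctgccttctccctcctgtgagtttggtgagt

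Counted from the annotated start, the first base of TATAAA lies at -27 in Lor, -29 in Ivl, -30 in Krtdap and Sprr1b, -28 in Tgm3 and -43 in Sprr1a. The Sfn window holds none of the 3 motifs. Dmkn has 3 annotated windows and Tgm1 has 2, of which the first is shown. The second window of Tgm1 holds none of the 3 motifs. A match is a description of the letters in the window, and binding was not measured here.

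Counts per library lay between 20929207 and 41219439. The limit that a count of 0 allows, 3 counts, thus corresponds to 0.0728 to 0.143 per 1000000 unscaled counts of 1 library. CPM below are counts per 1000000 of the TMM-scaled library, while the values of Ivl and Sprr1b pooled over all libraries use unscaled counts. The limits of 3 counts and the Poisson intervals below cover counting error only. All 9 markers of dental epithelium were present in every library, the lowest value being 8.35 CPM for Sox2. They summed to 35180, 107000, 105100 and 82880 CPM in the K14;Nogo-A pups and to 34740, 15390 and 44610 CPM in the controls, mostly from Amelx, the gene of the enamel protein amelogenin. Rtn4, the gene of Nogo-A, was counted over all its transcripts, had a log2 fold change of 0.12 and does not check the genotypes. Of the Y chromosome, 4 genes (Uty, Kdm5d, Eif2s3y and Ddx3y) were expressed in K14;Nogo-A replicate 1 and wild-type replicates 3 and 8 (mean log2 CPM 4.94 to 5.27) and nearly absent from the other 4 libraries (-3.71 to -3.04). The 12 mesenchyme markers, all detected, had a mean log2 CPM of 7.62 to 7.94 in K14;Nogo-A and of 8.33 to 8.48 in wild-type, with no overlap, while their summed level overlapped (10460 to 32090 against 25180 to 39880 CPM). Skeletal muscle markers summed to 6.46 to 26.2 CPM and leukocyte markers to 25.8 to 61.5 CPM. In bulk RNA, fewer cells of a type and less RNA per cell cannot be told apart.

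Levels of the 10 genes spanned from 0 to above 100 in CPM per kilobase of exon. Sfn, a 14-3-3 protein that binds phosphorylated proteins and keratins and is typical of stratified epithelia, was by far the most abundant, at 115 ± 28.0 CPM per kb (SD, n = 7 libraries), above 97.9% of the genes tested. Dmkn (dermokine) followed at 16.3 ± 5.21 and Tgm1 at 13.8 ± 4.21. Sbsn (suprabasin) reached 2.08 ± 0.444, Lor 1.245 ± 0.316 and Krtdap (keratinocyte differentiation associated protein) 0.802 ± 0.439. Sprr1a had 0.301 ± 0.219, Tgm3 0.0973 ± 0.0323 and Sprr1b 0.0201 ± 0.0265 CPM per kb. The 4 genes at the head of this order are those without TATAAA in their windows, and the 6 below them those with it. Only these exact letters were searched, and a link between the motif and the level was not tested.

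Not every neighbour in that order was separated by the spread between libraries. Sfn lay above Dmkn and Tgm1 above Sbsn in 7 of 7 libraries with no overlap of their ranges, at ratios of means of 7.04 and 6.63. Dmkn and Tgm1 could not be ordered, with Dmkn the higher in 4 of 7 libraries. Sbsn was above Lor, and Lor above Krtdap, in 7 of 7 libraries although their ranges overlapped. Krtdap was above Sprr1a in 6 and Sprr1a above Tgm3 in 5 of 7 libraries. All 10 genes together took 0.0193% to 0.0321% of the counts of a library, most of them from Sfn.

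**Figure D1:**
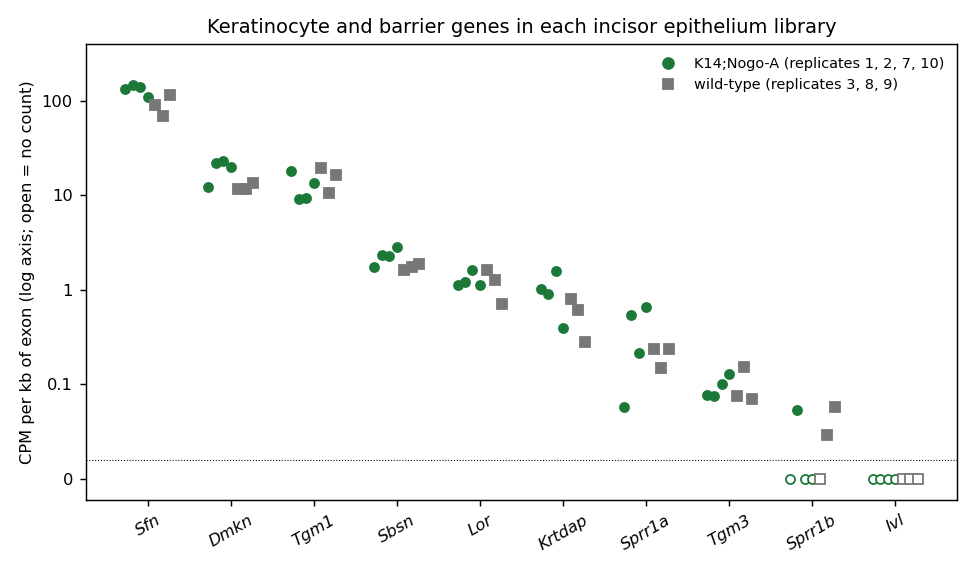
Level of each of the 10 genes (horizontal axis, ordered by mean) in CPM per kilobase of exon (vertical axis, logarithmic, with libraries without a count set at the 0 mark) in each library. Green circles are K14;Nogo-A (n = 4) and grey squares wild-type (n = 3). Sfn lies near 100, Dmkn and Tgm1 near 10 and Ivl at 0 in all 7 libraries.

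Of the envelope precursors, Ivl and Sprr1b were at or near 0 in the incisor epithelium, Sprr1a had few counts and Lor was detected in every library. Ivl had 0 counts in 7 of 7 libraries, of 202136305 counts in all. That allows a level of up to 0.0148 CPM by the limit of 3 counts. The exact Poisson 95% interval, as used for Sprr1b below, reaches 0.01825 CPM. Sprr1b had 1 count in each of 3 libraries (K14;Nogo-A replicate 2 and both wild-type replicate 8 and replicate 9) and 0 in the other 4, which is 0.0148 CPM over all libraries with an exact Poisson 95% interval of 0.00306 to 0.0434. Neither passed the filter on low counts, so the genotypes were not compared for them. Sprr1a had 1, 10, 5 and 14 counts in the K14;Nogo-A pups and 8, 5 and 4 counts in the controls. It passed the filter through the K14;Nogo-A libraries alone, of which replicate 1 is also the lowest of all 7. No 50-base stretch of the Sprr1a or Sprr1b transcripts is found in a transcript of another gene, so reads of these paralogs can be told apart where such a stretch is covered.

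Lor was the only one of the 4 precursors with more than a few counts in each library. It was at 2.03, 2.17, 2.89 and 2.02 CPM in the K14;Nogo-A pups and at 2.86, 2.29 and 1.248 CPM in the controls. The highest library of K14;Nogo-A and the highest of wild-type were nearly equal, and the lowest of all was wild-type replicate 9. The log2 fold change was 0.07, with a 95% interval of -0.55 to 0.69 (adjusted p = 0.94, edgeR's quasi-likelihood test). Its sign turned when K14;Nogo-A replicate 7 (-0.07) was left out and when wild-type replicate 9 (-0.16) was. The genotypes of Sprr1a differed by 0.85 on the log2 scale, with a 95% interval from -0.58 to 2.29 (adjusted p = 0.61).

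The related small envelope proteins were also close to the limit of detection. Of 34 further small proline-rich and late cornified envelope genes, 17 had no count in any library and 1, Sprr3, passed the filter, and the whole list summed to between 0.323 and 1.24 CPM in a library. Flg, which codes for the filaggrin that bundles keratin filaments, had 1 count in all libraries together, and so had Flg2. The keratins of cornifying skin were present at a low level. Krt1 was at 4.02 ± 0.537 CPM in K14;Nogo-A (SD, n = 4) and 3.57 ± 0.616 in the controls (SD, n = 3), and Krt10 at 6.55 ± 1.04 and 6.23 ± 0.811. Krt2 had no count in any library, and Krt77 did not pass the filter. Krt5 and Krt14, the keratins of the basal layer, were at 3405 ± 304 and 2448 ± 184 CPM in K14;Nogo-A and at 2761 ± 707 and 1982 ± 624 in the controls.

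Scaffold and junction proteins of the envelope, which other epithelia also make, were expressed, and the 11 genes of that list summed to 167 to 287 CPM. Evpl (envoplakin) had 97.5 ± 6.68 CPM in K14;Nogo-A and 79.6 ± 20.5 in the controls, and Ppl (periplakin) 66.7 ± 13.6 and 52.8 ± 11.6. Dsg1a, a desmosomal cadherin with near-identical copies, had 53.5 ± 4.39 and 42.8 ± 4.38 CPM. Among 8 keratins of the oral mucosa, Krt6a was the highest, at 24.6 CPM over all libraries, followed by Krt16 at 2.98 CPM, while Krt4, Krt13 and Krt76 had 0.462, 0.559 and 0.491 CPM.

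**Figure D2:**
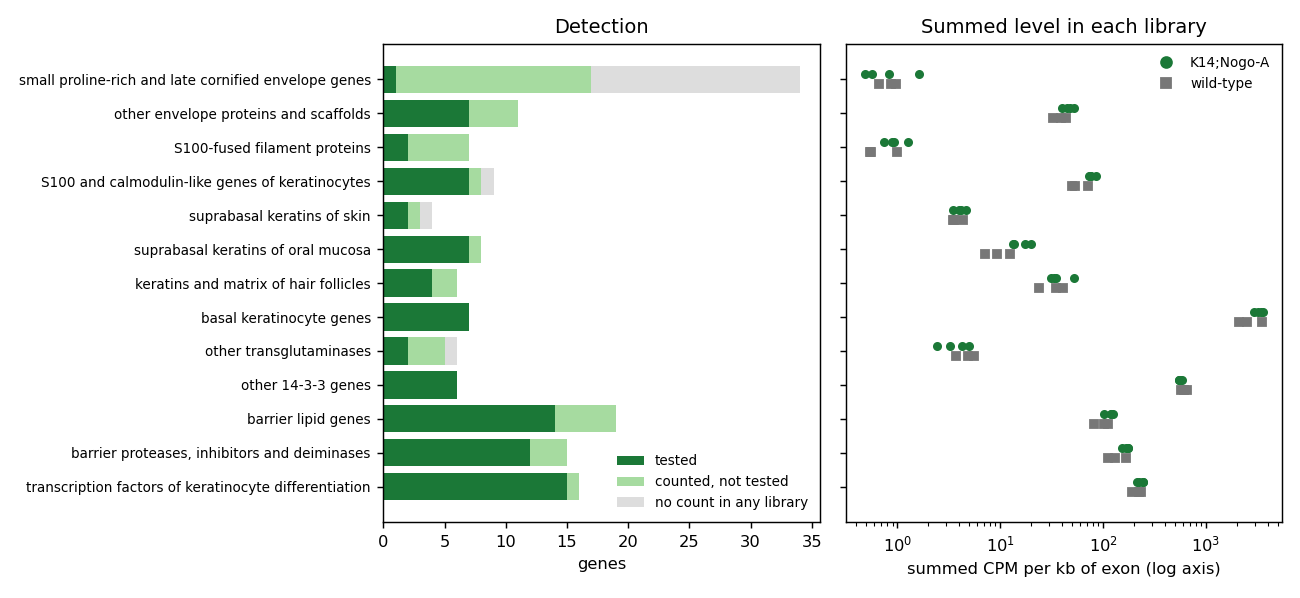
Left, number of genes (horizontal axis) of 13 lists of keratinocyte and barrier genes that were tested, counted but not tested, or without a count in any library. Right, summed level of each list in CPM per kilobase of exon (logarithmic axis) in each library of K14;Nogo-A (green circles, n = 4) and wild-type (grey squares, n = 3). The 34 small proline-rich and late cornified envelope genes sum to less than 2 in every library and the 7 basal keratinocyte genes to 2072 to 3541.

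The comparison of K14;Nogo-A with wild-type asks whether loss of Nogo-A from the dental epithelium goes with a change in these genes. Of the 10 genes, 8 were tested and none was called at an adjusted p under 0.05 by edgeR's quasi-likelihood test, which called 0.0338% of the 14791 genes tested. Unadjusted, 3 had a p under 0.05 (Sfn, Dmkn and Sbsn), each of them higher in K14;Nogo-A, against 6.25% of all genes tested on that side and 6.66% on the lower side. The likelihood-ratio test of edgeR and limma-voom also called 0 of them at an adjusted p under 0.05, against 1.12% and 0.027% of all genes tested. DESeq2 called 2 (Dmkn and Sfn), where it called 2.14% of all genes. The study's own limits were a P, not adjusted, of at most 0.05 and a change on the log2 scale of 0.5 or beyond. There 2 of 8 members (Sfn and Dmkn) were higher in K14;Nogo-A, against 2.02% of all genes tested, and 0 were lower, against 2.74%. Dropping K14;Nogo-A replicate 2 left 1 of them higher, as did dropping wild-type replicate 8, while dropping either replicate 1 or replicate 10 of K14;Nogo-A gave 3. In none of the 8 did the libraries of the genotypes separate, against 11.5% of all genes. The median log2 fold change of the 7 members that passed the filter in both genotypes was 0.41, and that of all such genes -0.0039. All these values are of members chosen with earlier results of these data known.

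Sfn, the most abundant member, was the higher in K14;Nogo-A on average. It was at 217, 236, 226 and 179 CPM in the K14;Nogo-A pups and at 145, 113 and 184 CPM in the controls. The groups overlapped by 1 library each, since wild-type replicate 9 lay above K14;Nogo-A replicate 10. The means were 214 ± 25.0 (SD, n = 4) and 147 ± 35.6 (SD, n = 3), and the log2 fold change was 0.55 (SE 0.16), with a 95% interval of 0.20 to 0.89 (adjusted p = 0.23, edgeR, and p = 0.086 in a two-sided exact permutation test). Without wild-type replicate 8 it was 0.39 and without K14;Nogo-A replicate 2 it was 0.50, just under the study's limit. Without wild-type replicate 9 it was 0.75 at an adjusted p of 0.048 from edgeR. The fit without that library called 93 of 15161 genes tested, against 5 of 14791 with all libraries. Of the 50-base stretches of the Sfn transcript, 235 of 1564 also occur in the pseudogene transcripts Gm5279, Gm7850 or Ywhaq-ps1. How featureCounts treated reads with several positions is not known here.

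Dmkn differed mainly by 3 libraries. It was at 48.7, 50.7 and 43.9 CPM in K14;Nogo-A replicates 2, 7 and 10, but at 26.8 in K14;Nogo-A replicate 1, and at 25.8, 25.5 and 29.3 in the controls. Replicate 1 thus lay within the wild-type range and the other 3 lay well above it. The log2 fold change was 0.66 (SE 0.19), with a 95% interval of 0.24 to 1.09 (adjusted p = 0.23, edgeR, and p = 0.086 in a two-sided exact permutation test). Without K14;Nogo-A replicate 1 it was 0.83 (adjusted p = 0.0089, edgeR). The fit without that library called 221 of 14771 genes tested, against 5 of 14791 with all libraries. The summed dental epithelium markers given above had the same split. In that sum, mostly Amelx, K14;Nogo-A replicate 1 lay in the wild-type range and the other 3 above it. Amelx itself had a log2 fold change of 1.32 (adjusted p = 0.35, edgeR). Krt14, also one of these markers, had no such split. It was at 2276, 2318, 2528 and 2668 CPM in the K14;Nogo-A pups and at 1803, 1468 and 2677 in the controls. The part of these markers in the Dmkn values was not tested. No 50-base stretch of Dmkn transcripts occurs in another gene.

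Sbsn, the neighbour of Dmkn on chromosome 7, had smaller differences. It was at 6.41, 8.57, 8.30 and 10.4 CPM in the K14;Nogo-A pups and at 5.89, 6.36 and 6.82 CPM in the controls, and only replicate 1 of K14;Nogo-A lay in the wild-type range. The log2 fold change was 0.41 (SE 0.18, adjusted p = 0.36), and 0.52 without K14;Nogo-A replicate 1. Exons of Sbsn share 279 bases with Tmem147os on the same strand. Krtdap, the third gene of that stretch, had 15, 14, 31 and 7 counts in the K14;Nogo-A pups and 23, 17 and 4 in the controls. Its CPM varied 5.63-fold between the highest library, K14;Nogo-A replicate 7, and the lowest, wild-type replicate 9. Of the K14;Nogo-A libraries only replicate 10 lay in the wild-type range. The log2 fold change was 0.71 with a 95% interval of -0.34 to 1.76 (adjusted p = 0.56). Without K14;Nogo-A replicate 7 it was 0.34 and without K14;Nogo-A replicate 10 it was 0.98, which passed the study's thresholds.

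**Figure D3:**
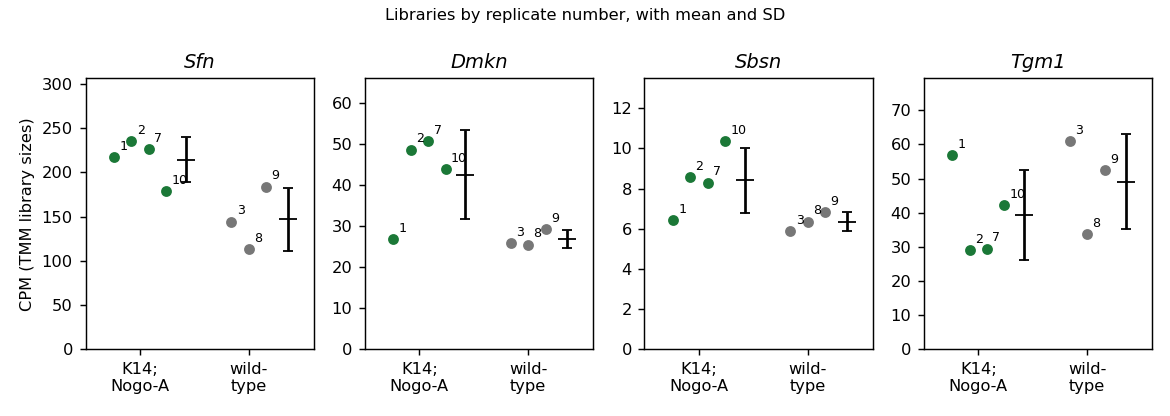
CPM (vertical axes, from 0) of Sfn, Dmkn, Sbsn and Tgm1 in each library, numbered by replicate. Green points are the 4 K14;Nogo-A pups and grey points the 3 controls. Bars give the mean and SD. In all 4 genes at least 1 library of a genotype lies in the range of the other, and K14;Nogo-A replicate 1 lies with wild-type in Dmkn.

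Of the transglutaminases, which form the bonds between envelope proteins, Tgm1 was the one expressed at a sizeable level. It was at 56.8, 29.0, 29.5 and 42.3 CPM in the K14;Nogo-A pups and at 61.0, 33.8 and 52.4 CPM in the controls. Low and high libraries occurred in both genotypes. The log2 fold change was -0.32 with a 95% interval of -0.97 to 0.33 (adjusted p = 0.67), and it was -0.54 without K14;Nogo-A replicate 1, which passed the study's thresholds. Exons of Tgm1 share 182 bases with the antisense gene Gm49067, and reads of both genes there cannot be told apart where strand was not used. Tgm3 had between 6 and 26 counts per library, at 0.396 ± 0.104 CPM in K14;Nogo-A and 0.410 ± 0.193 in the controls. Its difference of -0.08 had a 95% interval of -1.005 to 0.84, which spans 0. Without wild-type replicate 8 it was 0.41. Among 6 other transglutaminases, of which 2 were tested, Tgm2, a form found in many tissues, was at 15.9 ± 5.21 CPM and 20.8 ± 4.34 (adjusted p = 0.53), and none was past the study's thresholds. The other 14-3-3 genes, relatives of Sfn that most cells make, summed to 1731 to 1849 CPM in K14;Nogo-A and to 1815 to 2056 in the controls, and 0 of 6 were past them.

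**Figure D4:**
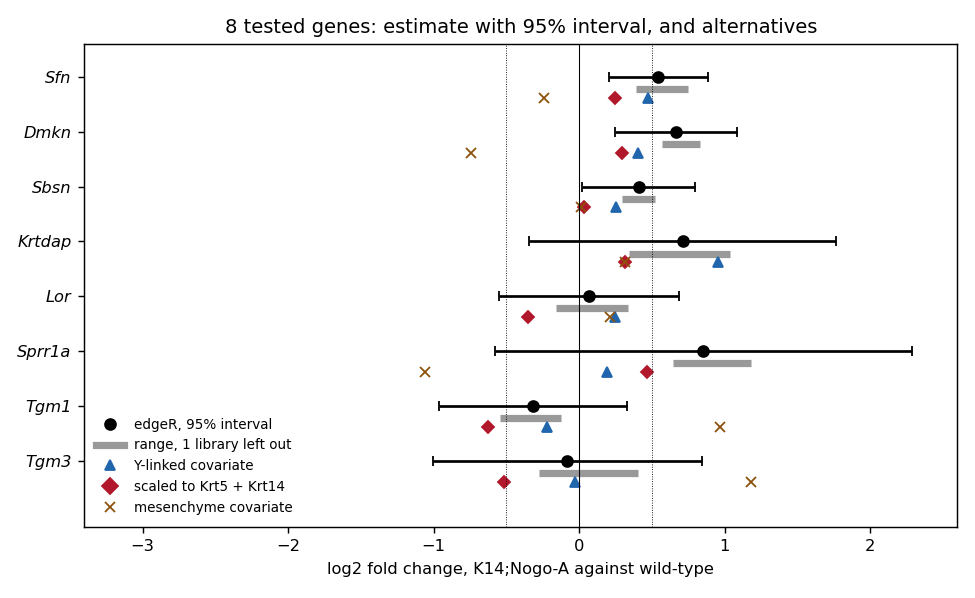
Log2 fold change of K14;Nogo-A against wild-type (horizontal axis) for the 8 genes tested. Black points and bars give the edgeR estimate with its 95% interval, grey bars the range when 1 library is left out, and symbols the estimate with a Y-linked covariate, with scaling to Krt5 and Krt14, or with a mesenchyme covariate. Dotted lines mark 0.5 in size. The intervals of Sfn, Dmkn and Sbsn lie above 0, while with the mesenchyme covariate Sfn is at -0.24 and Dmkn at -0.75.

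Measures of sample makeup moved with the differences in Sfn and Dmkn. With the mean of the mesenchyme markers as a covariate the log2 fold changes were -0.24 for Sfn and -0.75 for Dmkn, neither past the thresholds, in a fit that has to extrapolate because the marker means do not overlap. Sbsn was at 0.016 with that covariate, and at 0.26 with the Y-linked one. The part of the mesenchyme in these differences cannot be told apart from the genotype. Per 1000 counts of Krt5 and Krt14 together, Sfn had 41.3, 41.5, 36.8 and 28.3 in the K14;Nogo-A pups and 33.0, 31.0 and 29.6 in the controls. On that scale both the 3 highest libraries and the lowest were K14;Nogo-A (p = 0.20, two-sided exact permutation test). Dmkn had 5.08, 8.57, 8.25 and 6.96 in K14;Nogo-A and 5.90, 7.01 and 4.72 in the controls. The genotypes overlapped (p = 0.29, two-sided exact permutation test). Scaling all libraries to these keratins, a choice made after the values were seen, moved the median log2 fold change of all genes tested to -0.38. On that scale edgeR gave 0.24 for Sfn, 0.30 for Dmkn, 0.03 for Sbsn and -0.63 for Tgm1 (adjusted p = 0.10), the last past the study's thresholds. Set against that median, Sfn, Dmkn and Sbsn lay above it and Tgm1 below it, as with TMM. That holds nearly by construction, because the scaling uses 1 factor per library for all genes, and adds no support. Krt5 and Krt14 had themselves log2 fold changes of 0.30 each under TMM scaling (adjusted p = 0.45 and 0.49).

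These Y-chromosomal genes split each genotype, and few libraries remain on each side. Among the libraries that express them the log2 difference of Sfn was 0.77 and that of Dmkn 0.06 (1 K14;Nogo-A against 2 wild-type libraries). Among those that do not, it was 0.20 for Sfn and 0.70 for Dmkn (3 against 1). With these genes as a covariate, neither gene was past the study's fold limit, at 0.47 and 0.41.

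Beyond the members, 13 lists of other keratinocyte and barrier genes were counted, also chosen with earlier results of these data known. Of 149 genes 148 were in the tables, 20 of those had no count, and 86 were tested. edgeR's quasi-likelihood test called 0 after adjustment, against 3 by its likelihood-ratio test, 0 by limma-voom and 5 by DESeq2, which called 166, 4 and 317 of all 14791 genes. Unadjusted, 16 had a p under 0.05 and were higher, and 1 was lower, against 924 and 985 of all genes tested. At the study's thresholds 10 of 86 were higher, against 2.02% of all genes tested, and 0 lower. Of the 86, 64 had a positive and 22 a negative log2 fold change, against 7179 and 7612 of all genes tested. The 86 include 5 genes that passed the filter through K14;Nogo-A alone and 2 through wild-type alone. Over all genes tested these numbers were 111 and 404. The lists did not all lean the same way, since the medians of the other 14-3-3 genes (-0.11), the other transglutaminases (-0.17) and the small proline-rich and late cornified envelope genes (-0.19, from Sprr3 alone) were negative. The pooled median was 0.21 over the 79 genes that passed the filter in both genotypes. The count of higher genes was 23 without wild-type replicate 9 and 4 without wild-type replicate 8, and with the Krt5 and Krt14 scaling, which shifts all genes downward, it was 3 with 7 lower. With the mesenchyme covariate it was 0 with 6 lower, and with the Y-linked covariate 4 with 1 lower. The shares of all genes past these thresholds in those fits are not given here. At an adjusted p under 0.05, edgeR called 93 of all genes without wild-type replicate 9 and 0 without wild-type replicate 8. It called 687 with the keratin scaling, 0 with the mesenchyme covariate and 9 with the Y-linked one. These list counts thus moved in fits whose calls over all genes also moved.

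The barrier proteases and their inhibitors held 4 of those 10 genes. All 10 were picked by P and fold change in these same libraries, so a lack of overlap between genotypes adds no support. Over all genes tested, 11.5% did not overlap. Klk8, a kallikrein that acts in shedding of the stratum corneum, was at 22.0, 26.3, 25.5 and 28.4 CPM in the K14;Nogo-A pups and at 13.7, 15.9 and 18.7 in the controls. All 4 lay above all 3, with a log2 fold change of 0.67 (SE 0.14, adjusted p = 0.15). Serpinb5 (maspin), a serpin of epithelia, had 77.7 ± 13.4 CPM against 48.1 ± 12.4, also without overlap (log2 fold change 0.69, adjusted p = 0.22). Cst6, a cystatin that inhibits cathepsins in the epidermis, had 1.86 ± 0.849 against 0.979 ± 0.266 CPM, with overlap (adjusted p = 0.30, edgeR). The fourth, Padi3, a deiminase, had a log2 fold change of 0.76 (adjusted p = 0.36). The most abundant gene of that list, St14 (matriptase), was at 267 ± 43.2 and 207 ± 70.8 CPM and not past the thresholds.

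The other 6 genes came from 5 lists. S100a14, a calcium-binding protein of epithelia, was at 40.6, 41.9, 42.8 and 32.4 CPM in the K14;Nogo-A pups and at 25.0, 20.7 and 29.5 in the controls, again without overlap (log2 fold change 0.66, standard error 0.14, adjusted p = 0.17). Cers3, a ceramide synthase of the lipid barrier, had 14.8 ± 2.48 against 9.71 ± 1.13 CPM without overlap. Krt15, a basal keratin, had 78.9 ± 25.3 against 46.9 ± 11.5 CPM, with overlap (adjusted p = 0.30, edgeR). Krt6a had 29.0 ± 7.93 against 18.8 ± 3.86 CPM and Krt16 4.20 ± 1.64 against 1.35 ± 1.33, both with overlap (adjusted p = 0.29 and 0.30, edgeR). These are keratins of oral mucosa and of stressed epidermis, and reads of Krt6a and its copy Krt6b may be split between them. Zfp750, a transcription factor of late keratinocyte differentiation, had 88.6 ± 18.3 against 61.1 ± 13.7 CPM, and overlapped. Klf4, which acts in the same programme, was abundant, with a log2 fold change of -0.19 (adjusted p = 0.51).

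The members did not share 1 pattern over the 7 libraries. Centred on its own mean log2 CPM, each gene was compared with the mean profile of the 8 tested genes, which ran from -0.28 in wild-type replicate 9 to 0.25 in K14;Nogo-A replicate 7. Sbsn was the nearest, with a root mean square difference of 0.17 on the log2 scale, followed by Dmkn at 0.26. Sprr1a was the farthest at 0.65, then Krtdap at 0.60 and Tgm1 at 0.55. Sprr1a had 1 to 14 counts per library and Krtdap 4 to 31, so counting noise enters their distances. The mean profile includes each member that is compared with it. Among 12661 other genes with a mean count of at least 50, the profile was nearest in Syt3, a synaptotagmin, at 0.03, and then in the ion channel gene Hcn4, Tsc22d3, the prion protein gene Prnp and Grasp, at 0.06 to 0.07. These differences are a description over 7 libraries that differ in depth and in tissue makeup.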

How the data were processed

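The deposited tables hold raw gene counts. For them the authors aligned single-end reads of poly(A) RNA with STAR 2.7.1 to GRCm38 (Ensembl release 91) and counted with featureCounts. Whether strand was used in counting is unknown here, as the labels name a stranded kit and the study's methods another. Of 25700 identifiers 25664 matched a GENCODE M21 symbol, and those that did not held 0.0348% of all counts. A gene entered the test when at least 50% of one genotype's libraries had 10 counts or more (14791 genes). Groups follow the genotype labels. edgeR 4.0.16 in R 4.3.3 (TMM, robust quasi-likelihood test, no covariate, Benjamini-Hochberg adjustment over all genes tested) compared the genotypes. Log2 CPM used a prior count of 2, and levels between genes were divided by summed exon length. The exact permutation test of a single gene enumerates 35 assignments and cannot give a p below 0.0286.

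Alternatives were RLE and upper-quartile factors, the likelihood-ratio test, DESeq2 1.42.0, limma-voom (limma 3.58.1), 2 other filters, 2 covariates, thinned counts, 2 other thresholds and each library left out. Scaling to Krt5 and Krt14 was added after the values were seen. The test was tried on simulated counts, with an outcome that is not reported here and not used as support. The genes named are the 10 members, in each of 13 lists up to 3 with the highest CPM and up to 3 more with the smallest P past the study's thresholds, and the 5 nearest profiles. Padi3, Flg, Flg2, Krt2, Krt4, Krt13 and Krt76 fall outside that rule and were named after their values were seen. The members and lists were chosen with earlier results of these data known. P-values measure the spread between pups. The study had 1 more wild-type pup, not analysed here.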

Additional observations from a re-analysis of the deposited data

Results flagged for a closer look

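Lor was at 2.89 CPM in K14;Nogo-A replicate 7, far from the other 3 libraries of that genotype, which lay between 2.02 and 2.17 CPM. Dixon's ratio of the gap to the range was 0.835, past the 95% critical value for 4 values. Of the 8 genes examined in this way it was the only one past that value, and chance flags about 1 in 20. Wild-type replicate 3 had 2.86 CPM.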

How the results depend on the processing

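Both members past the study's thresholds (Sfn and Dmkn) stayed past them with RLE or upper-quartile factors, the likelihood-ratio test, DESeq2, limma-voom, the 2 other filters and thinned counts. The number was 0 with the Y-linked or the mesenchyme covariate, with the keratin scaling or at an adjusted p under 0.05, 1 at a fold change of at least 1.5, and 1 to 3 with 1 library left out. Lower members numbered 1 (Tgm1) with the keratin scaling and 0 to 1 with 1 library left out. Of the list genes 4 were higher with the Y-linked covariate, 0 with the mesenchyme covariate or at an adjusted p under 0.05, 3 with the keratin scaling and 4 to 23 with 1 library left out. The lower ones were 1 with limma-voom or the Y-linked covariate, 6 with the mesenchyme covariate, 7 with the keratin scaling and 0 to 2 with 1 library left out. The keratin scaling moved the median of all genes tested to -0.38 on the log2 scale. Shares of all genes past the study's thresholds are not given here for these alternatives.

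The sign of Lor turned with thinned counts (-0.018) and the keratin scaling (-0.35), and leaving out 1 library gave -0.16 to 0.34. That of Tgm3 ran from -0.28 to 0.41 with 1 library left out. With the mesenchyme covariate it turned for Dmkn (-0.75), Sfn (-0.24), Sprr1a (-1.06), Tgm1 (0.97) and Tgm3 (1.18), where the fit extrapolates. The cause was not tested. Thinned counts left 6 members tested and the stricter filter 5. At these counts a difference in Ivl or Sprr1b cannot be seen. No paired analysis was possible because the labels used here do not give the litter of a pup. Litter was therefore not part of any fit.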
